A study of Mus musculus with 4 samples.

Results

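Loxl2, Entpd4 and Slc25a37 lie side by side on mouse chromosome 14, and the stretch that holds them read low in 1 liver tumour and high in another. It was taken as all array probes with 1 of these 3 gene names together with all other probes of a 550 kb window around them, whose probes run from 69743806 to 70249137 on chromosome 14 (build mm9). This gave 60 of the 169093 probes that the array places on the autosomes, X and Y, and 14 of their 22180 gene names. Of the 60 probes, 19 carried the name of 1 of the 3 genes, namely 8 for Loxl2, 5 for Entpd4 and 6 for Slc25a37. The stretch was chosen by the log2 ratios of tumour over reference in these same tumours, so those ratios, and each dye's signals behind them, are a description and carry no test.

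The samples were 4 liver tumours, each from its own male C57BL/6J mouse with the genotype Trp53-/-, which lacks the tumour suppressor p53. The series title places that loss in the liver, whereas the genotype label is the same for tumour and spleen. The mice were untreated. Age, and the promoter that drove the deletion, are not given in the sources used here. Tumour DNA labelled with Cy5 (red) competed with reference DNA labelled with Cy3 (green) for the same probes on 1 array per tumour, and no dye was swapped. The reference was spleen DNA pooled from 3 littermates of the same sex and with the same labelled genotype, although the labelling protocol calls it liver. All 4 tumours form 1 group, numbered 1 to 4 without order, and each value below is log2 of tumour over reference, with the median of the autosomal probes of that array set to 0. No DNA of a tumour's own mouse was measured, so a change within the tumour and a difference between mice cannot be told apart.

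Array comparative genomic hybridization reads the relative amount of DNA at each probe, so a stretch present in more copies in the tumour than in the reference reads above 0. Stretches of many kilobases that differ in copy number between individuals are a common form of variation in mouse genomes. Loxl2 encodes lysyl oxidase-like 2, a secreted copper-dependent amine oxidase that cross-links collagen and has been studied in liver fibrosis. Entpd4 encodes a nucleoside diphosphatase of internal membranes. Slc25a37 encodes mitoferrin-1, a carrier that brings iron into mitochondria for haem synthesis.

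Of the libraries, arrays 1 and 4 stood apart on the sex chromosomes and went against the labelled male sex. The mean log2 ratio of chromosome X was -0.82, -0.05, -0.01 and 0.84 in tumours 1 to 4, and that of chromosome Y was 2.22, -0.09, -0.20 and -2.35. Array 2 was the noisiest, with a noise SD between neighbouring probes of 0.37 against 0.12 to 0.15 on the other 3. Tumours 1 and 2 shared a slide, as did tumours 3 and 4. Trp53 itself had 2 probes, which averaged -0.13 ± 0.18 (SD, n = 4) but lay on opposite sides of 0 in each tumour. The lower read -0.53, -0.78, -0.07 and -0.76 in tumours 1 to 4, and the higher 0.14, 0.51, 0.31 and 0.17. Which part of the gene was deleted is not given in the sources used here, so these probes check nothing.

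The positions that fix the edges of the stretch are shown by the probes themselves. The sequences below are those of the probes that bracket the left edge within Slc25a37, of the Entpd4 probe with the lowest ratio, of a Loxl2 probe in the interior, and of the probes that bracket the right edge. Each is printed 5′ to 3′ as the deposited files give it, all in lower case since no part of a probe is singled out, with its mm9 position. The files do not give the strand.
Slc25a37, last probe outside on the left, chr14:69871627-69871686: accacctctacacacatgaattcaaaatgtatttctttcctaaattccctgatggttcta
Slc25a37, first probe inside, chr14:69877295-69877344: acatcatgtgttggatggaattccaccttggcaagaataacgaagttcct
Slc25a37, next probe inside, chr14:69883860-69883919: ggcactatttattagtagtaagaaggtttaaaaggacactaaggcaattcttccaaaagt
Entpd4, lowest ratio in tumour 1, chr14:69984198-69984257: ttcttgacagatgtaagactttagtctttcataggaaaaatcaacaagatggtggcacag
Loxl2, interior, chr14:70035874-70035933: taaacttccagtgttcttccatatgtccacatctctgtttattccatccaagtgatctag
Loxl2, last probe inside, chr14:70070535-70070594: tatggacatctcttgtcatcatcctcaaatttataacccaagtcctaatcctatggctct
AF117951, first probe outside on the right, chr14:70097103-70097162: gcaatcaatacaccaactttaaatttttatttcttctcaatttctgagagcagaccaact

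In tumour 1 the low stretch ran from the first inside probe of Slc25a37 to the last probe of Loxl2, from 69877295 to 70070594. It held 23 probes over 193.3 kb, with a median spacing of 7.76 kb. These 23 probes are called the segment below, and the other 37 probes of the window lie outside it, 15 to the left and 22 to the right. The segment covered part of Slc25a37, all probes of Entpd4 and all probes of Loxl2, together with single probes named AK046150, AK031288 and BC086315 and 4 probes without a gene name.

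The segment's mean log2 ratio was -0.60 in tumour 1, -0.05 in tumour 2, -0.07 in tumour 3 and 0.49 in tumour 4. On the linear scale these are tumour to reference ratios of 0.66, 0.97, 0.95 and 1.41. Tumour 1 was low, tumour 4 was high by a similar amount, and tumours 2 and 3 lay near 0. The average over the tumours was therefore close to 0, at -0.06 ± 0.45 (SD, n = 4). Tumours 2 and 3 alone, the pair whose X and Y ratios lay near 0, averaged -0.06, and no segment was found in either. In tumour 2 the SD over the segment's probes was 0.50, against 0.15 to 0.20 in the others, so a shift there had to be larger to be found.

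The 37 probes outside the segment averaged 0.004, 0.08, -0.04 and -0.03 in tumours 1 to 4. The flanks of 1000000 bases on either side of the window averaged between -0.04 and 0.08, and chromosome 14 outside the window between -0.04 and 0.01. Neither the window's margins nor the rest of the chromosome followed the segment in tumour 1 or tumour 4.

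**Figure D1:**
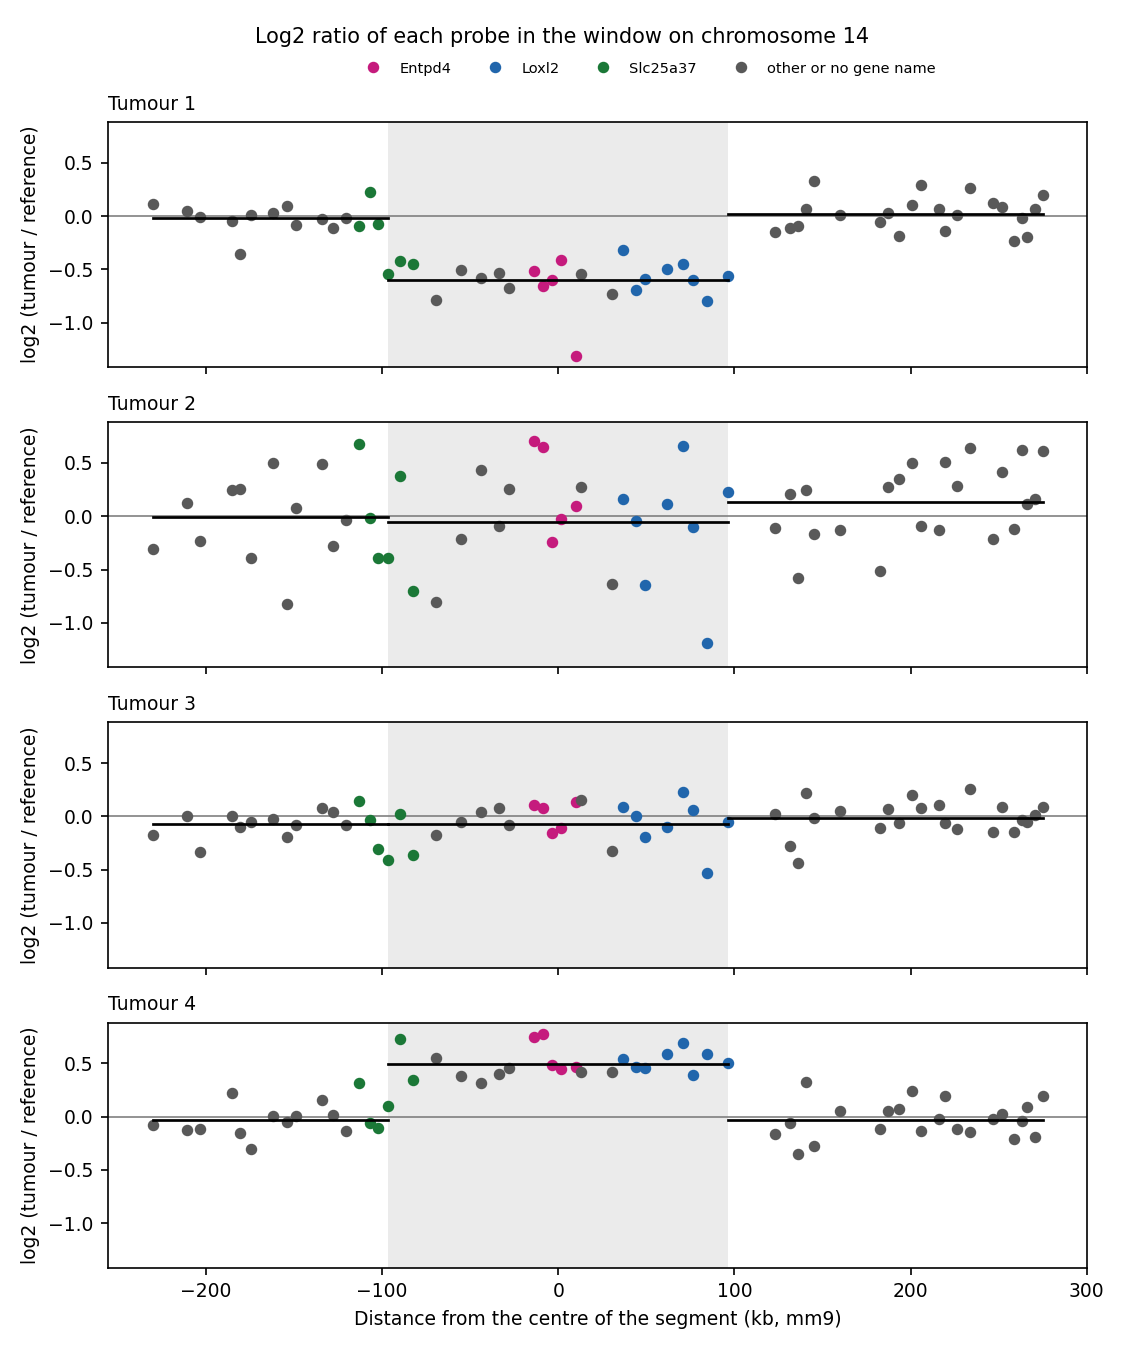
Log2 ratio of tumour over reference (vertical axis) of each of the 60 probes against its distance in kb from the centre of the segment (horizontal axis), with 1 panel per tumour; green, pink and blue points carry the names Slc25a37, Entpd4 and Loxl2, the shaded band is the segment and black lines are means over its probes and over the probes on either side. The 23 probes in the band sit around -0.60 in tumour 1 and 0.49 in tumour 4, and near 0 in tumours 2 and 3, where the points of tumour 2 scatter most.

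Single probes showed the same division. In tumour 1 the segment's probes read -1.31 at the lowest, -0.56 at the median and -0.32 at the highest, and the probes outside it -0.35 to 0.33. In tumour 4 the segment's probes read 0.10, 0.47 and 0.78 at the lowest, median and highest, and the probes outside -0.35 to 0.33. The ranges overlapped at their margins. In tumour 1 the Nkx2-6 probe outside read -0.35, below the highest segment probe. In tumour 4 the first inside probe of Slc25a37 (0.10) and an unnamed probe at 69930303 (0.32) read below the highest probe outside, which carries the name AF117951 (0.33). In tumour 2 the segment's probes spread from -1.19 to 0.70 and in tumour 3 from -0.53 to 0.23, with 0 within both ranges.

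At a log2 ratio of -0.3 or lower, tumour 1 had 23 of the 23 segment probes and 1 of the 37 outside, where 3.18% of all autosomal probes on that array read as low. It had 0 segment probes at 0.3 or higher (background 2.32%). At 0.3 or higher, tumour 4 had 22 of 23 inside and 2 of 37 outside, where 4.07% of its autosomal probes read as high. It had 0 segment probes at -0.3 or lower (background 5.7%). Tumour 3 had 4 segment probes at -0.3 or lower (background 5.46%) and 0 at 0.3 or higher (background 1.46%). Tumour 2 had 6 at -0.3 or lower and 5 at 0.3 or higher, on an array where 21.8% and 20.8% of the autosomal probes lay that far out. Tumour 1 gave the lowest of the 4 ratios at 19 of the 23 segment probes (27.0% of autosomal probes), and tumour 4 the highest at 22 of 23 (18.1%). The rule chose the stretch on these ratios, so nothing is read from the counts beyond their description.

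Some of the scatter within the segment was shared between arrays. Over the 23 probes the ratios of tumours 2 and 3 correlated at r = 0.84, against 0.50 over 159059 autosomal probes, and those of tumours 1 and 4 at 0.04, against 0.18. These points share their probes and dyes, and the correlations are given only as a description. The probe of Loxl2 at 70058209 to 70058268 read -1.19 in tumour 2 and -0.53 in tumour 3, and the BC086315 probe at 70004231 to 70004290 read -0.64 and -0.33. The Loxl2 probe was the lowest of the segment in both tumours. Every pair of arrays correlated above 0 over the autosomal probes, with r between 0.14 and 0.50.

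Subtracting the ratio of tumour 1 from that of tumour 4 cancels any bias of a probe common to both arrays. The difference averaged 1.09 with an SD of 0.24 over the 23 segment probes, and -0.03 with an SD of 0.23 over the 37 outside. Its lowest value inside the segment, 0.64, lay above its highest value outside, 0.42. On this scale the segment's probes and the window's other probes did not overlap.

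The left edge fell within Slc25a37. The 3 probes of this gene from 69860919 to 69871686 lay outside the segment and averaged 0.02, 0.09, -0.06 and 0.05 in tumours 1 to 4. The 3 probes from 69877295 to 69891359 lay inside and averaged -0.47, -0.24, -0.25 and 0.39. The gene was thus read at 2 levels in tumours 1 and 4, and its mean over all 6 probes, -0.23 and 0.22 there, mixes them. Of its outside probes, the one at 69860919 had the window's highest difference between tumours 4 and 1 outside the segment, 0.42.

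The first inside probe of Slc25a37 was assigned differently in the 2 tumours. It read -0.54 in tumour 1, inside the low stretch, and 0.10 in tumour 4, where the high stretch was found to start 1 probe later, at 69883860. That probe also read low in tumours 2 and 3, at -0.39 and -0.41. The difference between tumours 4 and 1 at this probe was 0.64, against -0.04 at its left neighbour and 1.16 at its right neighbour. Segmenting the difference, which was chosen after seeing the data, put its left edge between 69871686 and 69877295, a gap of 5.61 kb without a probe. The difference joins both tumours in 1 value per probe, so it does not place an edge for tumour 4 alone.

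The right edge fell beyond the last probe of Loxl2 and was the same in tumours 1 and 4. The last Loxl2 probe, at 70070535 to 70070594, read -0.56, 0.23, -0.05 and 0.50 in tumours 1 to 4. The next probe, named AF117951, at 70097103, read -0.15, -0.11, 0.02 and -0.17. The edge thus lay in a gap of 26.5 kb without a probe. With penalty factors of 1.5, 3 and 6 the edges of tumour 4 did not move, whereas at 1.5 the segment of tumour 1 was broken at the Entpd4 probe with the lowest ratio. That probe, at 69984198, then formed a piece of its own at -1.31, between stretches of 12 probes at -0.56 and 10 probes at -0.58.

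Loxl2, the collagen cross-linking enzyme, averaged -0.56, -0.10, -0.06 and 0.53 in tumours 1 to 4 over its 8 probes. Tumour 1 was below 0 and tumour 4 above 0 at 8 of 8 probes, and the mean over tumours was -0.05 ± 0.45 (SD, n = 4). The difference between tumours 4 and 1 was 1.09 with an SD of 0.15 over these probes.

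Entpd4, the nucleoside diphosphatase, averaged -0.70, 0.23, 0.01 and 0.59 over its 5 probes, a mean of 0.03 ± 0.54 (SD, n = 4). Tumour 1 gave the lowest and tumour 4 the highest ratio at 5 of 5 probes. The lower mean of tumour 1 rested on the probe at 69984198, which read -1.31, 0.09, 0.13 and 0.47 in tumours 1 to 4. The median of its 5 probes in tumour 1 was -0.60, close to the segment's mean.

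The 3 inside probes of Slc25a37, the mitochondrial iron carrier, had a difference between tumours 4 and 1 of 0.87 with an SD of 0.26. The corresponding value for Entpd4 was 1.28 with an SD of 0.35. Probe by probe these differences ran from 0.86 to 1.38 in Loxl2, from 0.86 to 1.78 in Entpd4 and from 0.64 to 1.16 in Slc25a37, so the 3 genes' ranges overlapped.

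The 3 named single probes between these genes followed them. AK046150 read -0.68, 0.26, -0.08 and 0.46 in tumours 1 to 4. AK031288 read -0.54, 0.27, 0.16 and 0.42, and BC086315 read -0.73, -0.64, -0.33 and 0.42. In each, tumour 1 was the lowest and tumour 4 the highest. The 4 probes without a gene name averaged -0.60, -0.17, -0.03 and 0.41.

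The genes on either side did not share this pattern. To the left, Nkx2-6, a homeobox gene with 1 probe, read -0.35, 0.26, -0.10 and -0.15. To the right, the 12 probes named AF117951 averaged -0.01, 0.06, -0.04 and -0.05. Chmp7, which encodes a subunit of the ESCRT-III membrane-remodelling complex and has 1 probe, read 0.33, -0.17, -0.01 and -0.27. Its tumours 1 and 4 thus lay the opposite way from the segment. Tnfrsf10b, a death receptor for TRAIL, averaged 0.07, 0.26, 0.08 and 0.06 over 3 probes. Rhobtb2 averaged -0.02, 0.22, -0.02 and 0.02, and 1700081D17Rik averaged 0.02, 0.30, 0.02 and 0.03, also over 3 probes each. Tumour 2, on the noisiest array, gave the highest value in each of these last 3.

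**Figure D2:**
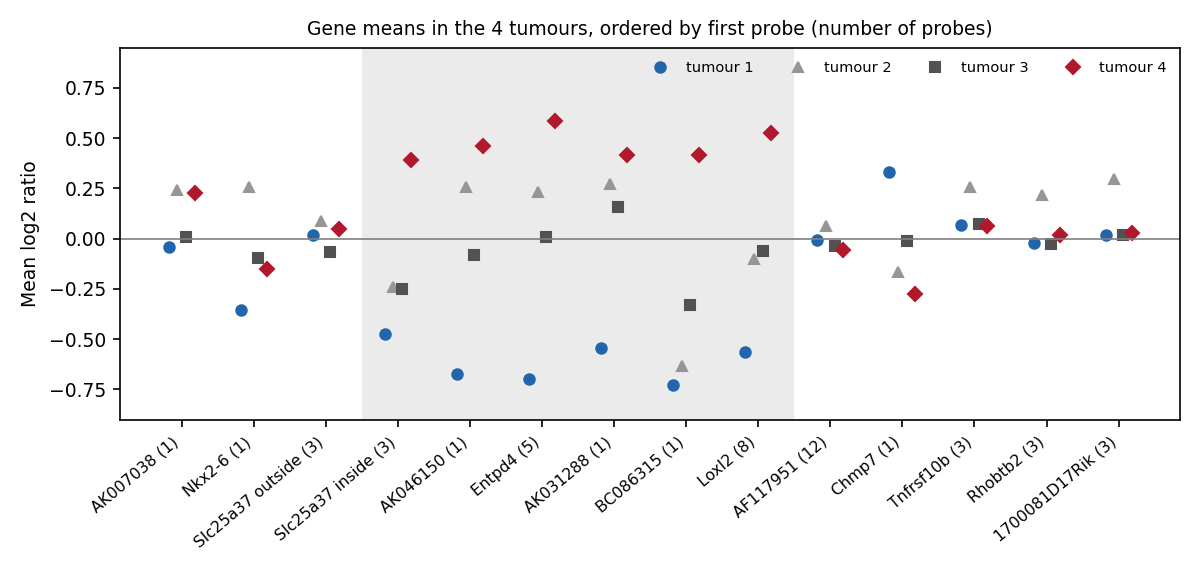
Mean log2 ratio of tumour over reference (vertical axis) for the gene names of the window that are described here, ordered by its first probe with the number of probes in brackets (horizontal axis), with Slc25a37 split into its probes outside and inside the segment; circles, triangles, squares and diamonds are tumours 1 to 4 and the shaded band holds the names inside the segment. Within the band tumour 1 lies at -0.47 or lower and tumour 4 at 0.39 or higher, whereas outside it the 4 tumours are not ordered this way.

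Each dye was then read apart, to see which side of the ratio moved. For every channel the log2 signal was set to 0 at the median of its own autosomal probes and averaged over the 23 segment probes, so levels can be compared between arrays of the same dye. In the tumour channel (Cy5) the level was -0.08, -0.03, -0.06 and 0.52 on arrays 1 to 4. In the reference channel (Cy3) it was 0.51, 0.002, -0.01 and 0.02. Of the 8 channels, 6 lay between -0.08 and 0.02, and the other 2 were the reference of array 1 and the tumour of array 4.

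The low ratio of tumour 1 thus came with a high reference channel, while the mean of its tumour channel was the lowest of arrays 1 to 3 by a small amount. That rank rested on the Entpd4 probe at 69984198, whose tumour channel read -2.01 on array 1 against -1.13 and -1.14 on arrays 2 and 3. The reference channel of array 1 exceeded the mean of that dye on the 3 other arrays by 0.51, while those 3 arrays differed by at most 0.03. The tumour channels of arrays 1 to 3 differed by at most 0.05. The high ratio of tumour 4 came with a high tumour channel, which exceeded the mean of that dye on the 3 other arrays by 0.58. Outside the segment, the 37 other probes of the window gave tumour channel levels between -0.05 and -0.02 and reference channel levels between -0.13 and 0.0001.

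**Figure D3:**
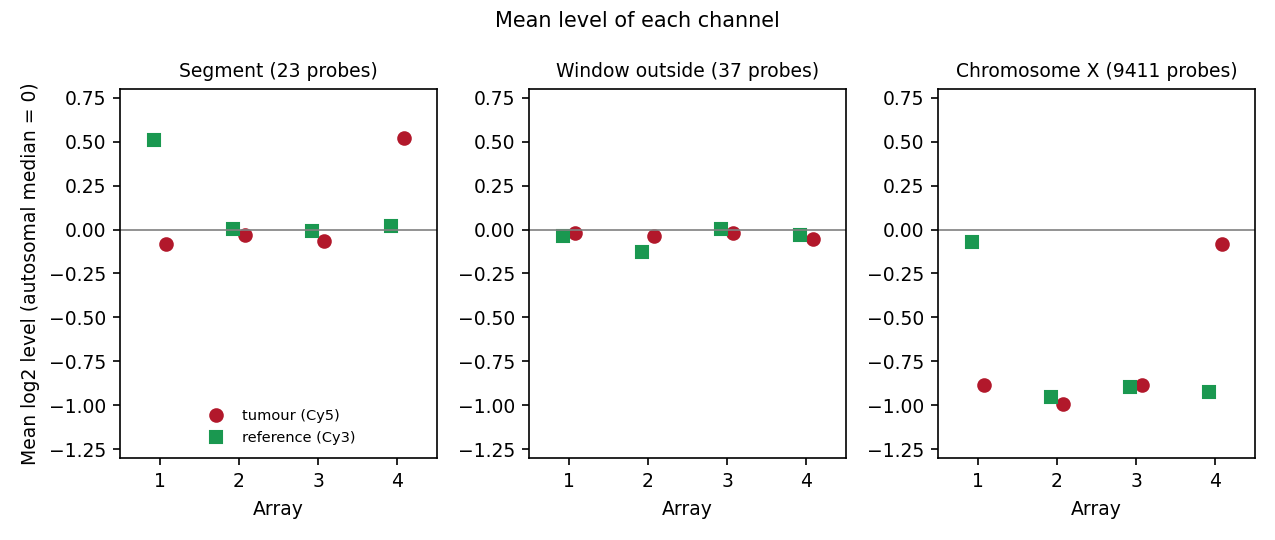
Mean log2 level of each channel with the median of its autosomal probes at 0 (vertical axis) on arrays 1 to 4 (horizontal axis), for the segment, for the window outside it and for chromosome X; red circles are the tumour channel (Cy5) and green squares the reference channel (Cy3). The reference of array 1 and the tumour of array 4 stand at 0.51 and 0.52 in the segment and at -0.07 and -0.08 on chromosome X, above the 6 other channels in both, and not outside the segment.

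The same channels lay above the median of their dye at every probe of the segment, but did not stand apart at each. At the Loxl2 probe at 70058209 the reference channel read -0.25 on array 1 and -0.09 on array 2. At the BC086315 probe the tumour channel read 0.30 on array 4 and 0.27 on array 3. Relative to the median of the dye over the 4 arrays, the reference channel of array 1 was above 0 at 23 of 23 probes, with a mean of 0.43 and an SD of 0.13 over probes. The tumour channel of array 4 was above 0 at 23 of 23, with a mean of 0.49 and an SD of 0.14. The tumour channel of array 1 was above 0 at 8 of 23 (mean -0.11, SD 0.22), and the reference channel of array 4 at 12 of 23 (mean -0.06, SD 0.23). Of the 7864 probes of chromosome 14 outside the window, 3381 were above 0 in the reference channel of array 1 and 4682 in the tumour channel of array 4. There were 3620 in the tumour channel of array 1 and 4232 in the reference channel of array 4.

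At 0.3 or more over the dye's median there were 20 of 23 probes in the reference channel of array 1, where 2.43% of autosomal probes reached it. There were 21 of 23 in the tumour channel of array 4 (background 1.23%). The tumour channel of array 1 had 0 of 23 (background 7.24%), and so did the reference channel of array 4 (background 2.47%). Outside the segment the reference channel of array 1 had 1 of 37 and the tumour channel of array 4 had 0 of 37.

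Read this way, the first inside probe of Slc25a37 fell within the segment on both arrays. Its reference channel read -0.67 on array 1 against -1.18, -1.14 and -1.22 on arrays 2 to 4. Its tumour channel read -1.11 on array 4 against -1.20, -1.55 and -1.54 on arrays 1 to 3, and so lay close to that of array 1. Segmenting the reference channel of array 1 and the tumour channel of array 4 by themselves, also chosen after seeing the data, gave 69877295 to 70070594 in both. The same segmentation of the 6 other channels, the tumour channel of array 1, the reference channel of array 4 and both channels of arrays 2 and 3, found no segment there with a mean of at least 0.2 in size.

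The Entpd4 probe with the lowest ratio differed from the rest of the segment in the tumour channel of array 1. Its tumour channel read -2.01 on array 1, against -1.13, -1.14 and -0.58 on arrays 2 to 4. Its reference channel read -0.70 on array 1, against -1.24, -1.29 and -1.06. At this probe the tumour channel of array 1 was low and its reference channel was high. In no other probe of the segment did the tumour channel of array 1 lie as far below the median of its dye, -0.88. The BC086315 probe and the Loxl2 probe at 70058209 departed in the reference channel of array 4. Relative to the median of its dye that channel read -0.67 and -0.75 there, while the tumour channel of array 4 read 0.15 and 0.49.

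**Figure D4:**
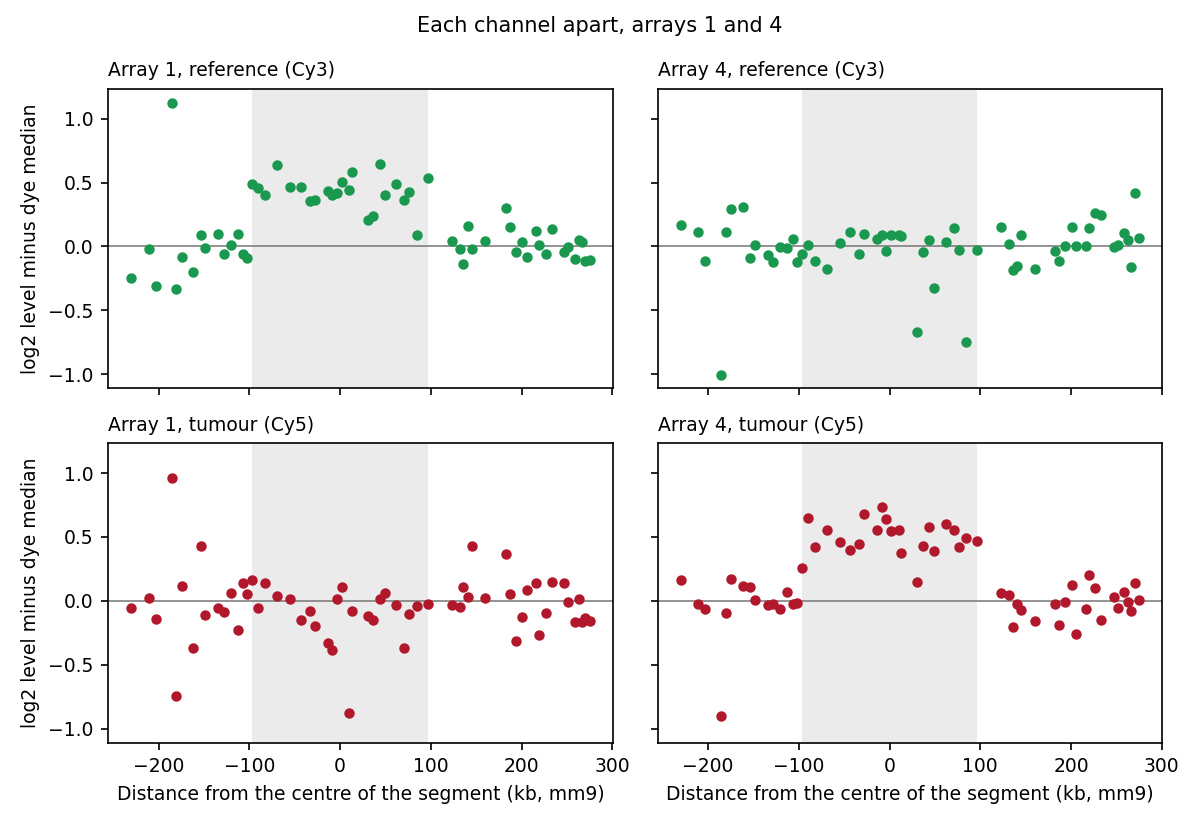
Log2 level of each of the 60 probes minus the median of the same dye over the 4 arrays (vertical axis) against distance in kb from the centre of the segment (horizontal axis), for the reference (green, top) and tumour (red, bottom) channels of array 1 (left) and array 4 (right); the shaded band is the segment. The reference of array 1 and the tumour of array 4 are raised over the band, by 0.43 and 0.49 on average, while the other 2 panels stay around 0 apart from single probes.

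The 2 channels that were high in the segment were also the 2 that went against the labelled sex. On chromosome X the reference channel of array 1 read -0.07 and the tumour channel of array 4 read -0.08, against -0.99 to -0.89 in the 6 other channels. On chromosome Y they read -3.38 and -3.11, against -1.15 to -0.74. The sex chromosome readings thus moved with the segment over the 8 channels, and their part in the result was not tested. As a measure of scale on the same arrays, the X ratio was 0.56 in tumour 1 and 1.79 in tumour 4 (linear), and the segment's ratio was 0.66 and 1.41.

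Base composition and signal quality, which the ratios do not use, were read as well. The GC content of the segment's probes averaged 36.7% (SD 1.92) against 36.5% (SD 2.43) over the 37 probes outside. All 23 lay well above background in both channels on all 4 arrays, none was saturated, and no spot of the window carried an outlier mark. By RefSeq's genes for GRCm38.p6, used only for names and their order, 13 entries lie between Slc25a37 and Loxl2. Of these, 6 are protein-coding, namely Synb, Entpd4, Gm16867, Gm21451, LOC115488278 and Entpd4b, and Entpd4 alone is a name on the array. Entpd4b, a further gene of that name, lies between Entpd4 and Loxl2 in that assembly. Whether probes of the segment match more than 1 place in the genome was not tested.

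Of 9588 other autosomal genes with at least 3 probes, the 8 with means closest to the segment's 4 values were found by Euclidean distance over the 4 tumours. The nearest 4 lay near each other on chromosome 3. They were AK136073 (-0.50, -0.06, -0.07 and 0.51 in tumours 1 to 4, distance 0.099), BC075654 (distance 0.20), Lphn2 (-0.48, 0.06, 0.06 and 0.53, distance 0.21) and AK139864 (distance 0.26). The others were Nlrp4c on chromosome 7 (distance 0.34), Ccdc11 on chromosome 18 (distance 0.34), Shc3 on chromosome 13 (distance 0.44) and Crxos1 on chromosome 7 (distance 0.46). In all 8, tumour 1 was below 0 and tumour 4 above it, which choosing them by closeness to the segment's values had fixed in advance.

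The relatives of the 3 genes elsewhere in the genome were tested, since the rule did not use them. Gene means over the 4 tumours were tested against 0 with limma and Benjamini-Hochberg adjustment over 13389 autosomal genes with at least 2 probes. In that fit 0.0% of the genes passed an adjusted p of 0.05 as higher and 0.0% as lower, and 2540 had an unadjusted p under 0.05. Spread between the mice within a pooled reference is not part of this test. Its p-values rest on the spread over the 4 ratios, moderated over all genes. Differences between tumours, between references and between arrays are not separated in that spread.

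Of the lysyl oxidase family, which cross-links collagen and elastin, 3 of 4 listed genes were tested and 0 passed in either direction. Their median was 0.05, against -0.01 over all genes, and 2 had an unadjusted p under 0.05. The smallest p was that of Loxl4, which read 0.08, 0.23, 0.11 and 0.14 (mean 0.14 ± 0.06, SD, n = 4; limma adjusted p = 0.17), above 0 in 4 of 4 tumours.

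Of the other ectonucleoside diphosphohydrolases 5 of 7 were tested and 0 passed, with a median of -0.04 and 1 unadjusted p under 0.05. That was Entpd6, an enzyme of nucleotide breakdown, which read 0.17, 0.49, 0.19 and 0.27 (mean 0.28 ± 0.15, SD, n = 4; limma adjusted p = 0.085). Of the genes of mitochondrial iron import and haem synthesis 6 of 16 were tested and 0 passed, with a median of -0.08 and 3 unadjusted p under 0.05. The smallest p was that of Slc25a38, the carrier that brings glycine into mitochondria, which read -0.34, -0.18, -0.10 and -0.44 (mean -0.27 ± 0.15, SD, n = 4; limma adjusted p = 0.098). Slc25a38 lies on chromosome 9, as do Loxl1, Entpd3 and Alas1 of the tested list genes. Their means over the tumours, in that order, were -0.27, -0.14, -0.08 and -0.14. Whether the chromosome has a part in these values was not tested. The 2 slides held 2 tumours each. With the slide as a random block Entpd6, Slc25a38 and Alad, an enzyme of haem synthesis, passed limma's adjusted p (0.022, 0.023 and 0.034). They were among 474 higher and 640 lower of all genes. The correlation within slides estimated in that fit was -0.34, below 0, and the block did not make the test stricter. Without tumour 2, on the noisiest array, 2 of the 14 tested list genes passed limma's adjusted p as higher (Entpd6 and Alad) and 3 as lower (Entpd3, Entpd5 and Slc25a38), among 416 and 746 of all genes. Entpd6, Slc25a38, Alad and Loxl4 had 2 probes each, the fewest that the test took, while Entpd3 and Entpd5 had 3 and 5. When only genes with at least 3 probes were tested, over all 4 tumours, 0 of 8 list genes passed in either direction. Alad, Alas1, Loxl1, Entpd3 and Entpd5 are named after their values were seen.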

How the data were processed

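Genomic DNA of 4 tumours was hybridized with pooled reference DNA on 4 2-colour Agilent arrays. The deposited intensities were made with Agilent Feature Extraction 12.0.1.1 on mm9 positions, per the file headers (12.0.0 in the submitters' processing notes). Each dye's processed intensity had its background subtracted and a spatial trend removed, and was scaled by 1 linear dye factor, per the file headers. The deposited log10 ratio was used only to check the direction: it matched the processed signals within 0.001 at 99.7% or more of the placed spots of each array.

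Spots marked as non-uniform or population outliers were left out, spots of 1 probe were averaged, and log2 of red over green was centred on the autosomal median, with no loess. Chromosome 14 was segmented by penalised least squares (penalty factor 3), and a segment needed a mean of at least 0.2 in size. Genes were tested with limma 3.58.1 in R 4.3.3; other steps used Python 3.11.15. Segmentation and limma were tested on simulated data. The number of arrays limits the precision.

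Edges on the difference between tumours and on single channels were added after seeing the data. The members, gene lists and tests were chosen with earlier results of these data known. The named genes were the 3 members, every other gene name of the window, the smallest p of each list, and the 8 genes most alike; 1 gene name of the window is not reported here.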

Additional observations from a re-analysis of the deposited data

Results flagged for a closer look

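Of 18 sets of 4 values examined (the segment and its genes, as ratios and in each channel), 3 held 1 array apart from the others by more than Dixon's critical ratio of gap to range. The stretch was chosen on these readings and the sets overlap, so this is a description and no test, and the rate of about 1 in 20 that chance gives elsewhere does not apply. In the segment, the tumour channel of array 4 read 0.52 against -0.08 to -0.03 on the other arrays. In the segment, the reference channel of array 1 read 0.51 against -0.01 to 0.02. In Loxl2, whose 8 probes are part of the segment and so repeat it, the tumour channel of array 4 read 0.58 against 0.01 to 0.07.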

How the results depend on the processing

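Tumour and reference were compared within each array through the log2 ratio. No further pairing was possible, because there is 1 group and the labels give no replicate numbers. The segment's mean kept its sign in tumours 1 and 4 under every alternative run. Averaged over all probes of the window, which adds the 37 outside, it was -0.23 in tumour 1 and 0.17 in tumour 4. Leaving out 1 tumour at a time moved the average over tumours between -0.24 and 0.12; it was -0.32 within the slide of tumours 1 and 2 and 0.21 within the other, and 0.24 or -0.30 with the sign of tumour 1 or 4 turned. With a penalty factor of 1.5 the first piece of tumour 1's segment ended at 69975767. The first inside probe was 69877295 in the difference of tumours 4 and 1, which joins both tumours, and in the tumour channel of array 4 alone. Under normexp background correction the reference level of array 1 was 0.79. Its excess over the other arrays was 0.72 with normexp, 0.53 with mean minus background signals and 0.49 relative to the window's other probes. The excess of the tumour channel of array 4 was 0.65, 0.53 and 0.60 in the same order. List genes passing as higher and lower numbered 3 and 2 with normexp and 2 and 1 with the slide as a random block. In the main fit they numbered 0 and 0. Entpd6, Alad and Slc25a38 passed with both, and Loxl4 and Loxl1 with normexp. With 1 tumour left out the counts of list genes ranged from 0 to 2 and from 0 to 3. Over all genes the counts were 647 and 822 with normexp, 474 and 640 with the block, and 186 and 178 for genes with at least 3 probes. They were 416 and 746 without tumour 2, against 0 and 0 in the main fit. The cause was not tested. Signal was well above background at every segment probe; probe spacing and the scatter of single probes limit the edges.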

Other observations

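The AK007038 probe at 69788430 to 69788489, to the left of the segment, was dim in both channels of arrays 2 and 4. Its tumour channel read -0.23, -3.57, -0.30 and -2.10 on arrays 1 to 4, and its reference channel -0.20, -3.83, -0.32 and -2.33. Its ratios, -0.04, 0.24, 0.01 and 0.23, showed little of this. It is also the probe outside the segment at which the reference channel of array 1 lay 1.13 above the median of its dye, the highest value outside the segment. The probe was singled out after its values were seen.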
